A study of Canis lupus familiaris with 186 samples.

Results

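Ezrin (EZR), radixin (RDX), moesin (MSN), CD44 and S100A4 are genes that cancer biology links to cell movement and metastasis. They were chosen by name, and each of the 5 was found as exactly 1 row among the 37952 genes of the deposited table. All 5 passed the filter on low counts, as did 13422 genes in all. The tumors were primary osteosarcomas of the limbs of 186 privately owned pet dogs, each biopsied before any treatment and at a time when no macroscopic metastasis was seen. The dogs belonged to 2 clinical trials, labelled COTC021 and COTC022, with 93 dogs in each. Every dog later had the limb amputated and received adjuvant carboplatin, with or without rapamycin, so neither drug had been given when these samples were taken. Messenger RNA of bulk frozen tumor was sequenced, 1 library per dog. No normal bone and no cell line entered the comparisons, and the dogs varied in age, breed and sex. The clusters of the GS-1 signature and the outcomes of the dogs are not part of the sample labels and were not analysed here. A continuous GS-1 score was computed from the counts in their place.

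Ezrin, radixin and moesin form the ERM family. Each carries a FERM domain that binds the tails of membrane proteins and a C-terminal stretch that binds actin, so that the active, phosphorylated protein ties the cell membrane to the cytoskeleton. CD44, the main receptor for the matrix sugar hyaluronan, is one of the membrane proteins they bind. S100A4 is a small calcium-binding protein that acts on non-muscle myosin, and ezrin was described early as a gene tied to metastasis in osteosarcoma of children and dogs. In many tissues leukocytes make much moesin and CD44, whereas ezrin is the ERM protein of epithelia.

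On the dog assembly UU_Cfam_GSD_1.0, the build the reads were mapped to, the annotation places the 5 protein-coding genes on 5 chromosomes. EZR lies at chr1:48653395-48703265 and RDX at chr5:22589215-22677042. MSN lies on the X chromosome at chrX:50900835-50967356. CD44 occupies chr18:33135283-33223633, and S100A4 occupies chr7:43483524-43485545. Only counts per whole gene are given, so isoforms of CD44 were not examined. Exon lengths were not used, and levels are therefore compared between dogs and not between genes.

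The libraries held between 6587634 and 27420867 counts, with a median of 10797171. A set of 50 libraries, marked by a doubled separator in the deposited column names, was deeper than the other 136, with medians of 19440456 and 9851682 counts, and it held 18 dogs of COTC021 and 32 of COTC022. What the mark stands for is not given in the sources used here. Between the deeper and the other libraries 573 of 13422 genes differed, and none of the 5 members was among them (limma-voom, adjusted p from 0.482 to 0.903). At an unadjusted p under 0.05 the number of genes was 2471. All 10 osteoblast markers passed the filter on low counts, and their summed level per library ranged from 863 to 200100 CPM (counts scaled to the library total). Of 8 epithelial markers, 2 passed. The 10 leukocyte markers summed to between 113.7 and 3439 CPM in COTC021 and between 88.7 and 7849 CPM in COTC022, with no marker at 0 in every library of a trial.

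All 5 genes were counted in every tumor, with at least 158 reads each. EZR varied least between dogs, with a lowest level of 148 CPM, a median of 429 and a highest of 1098. RDX ran from 54.2 through a median of 168.9 to 462 CPM. For MSN the lowest, median and highest levels were 183, 603.5 and 2252 CPM. The highest tumor stood 7.42-fold above the lowest for EZR, 8.52-fold for RDX and 12.3-fold for MSN. In bulk tumor, fewer cells of a type and less RNA per cell cannot be told apart, and this holds for every level given here.

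CD44 and S100A4 spread much further. CD44 had a lowest level of 18.8 CPM, a median of 91.4 and a highest of 1331. S100A4 ran from 16.5 through a median of 159 to 1416 CPM. The range was 70.9-fold for CD44 and 85.6-fold for S100A4. A single dog set the top of the CD44 range, since the next highest dog had 498 CPM, and the fold from percentile 10 to percentile 90 of the dogs was 3.78 for CD44 against 7.41 for S100A4. As a standard deviation (SD) of log2 CPM after normalization, the spread was 0.459 for EZR, 0.503 for RDX, 0.624 for MSN, 0.862 for CD44 and 1.17 for S100A4. The median gene had 0.616, and 21.4% of genes tested varied less than EZR whereas 83.4% varied less than S100A4.

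**Figure D1:**
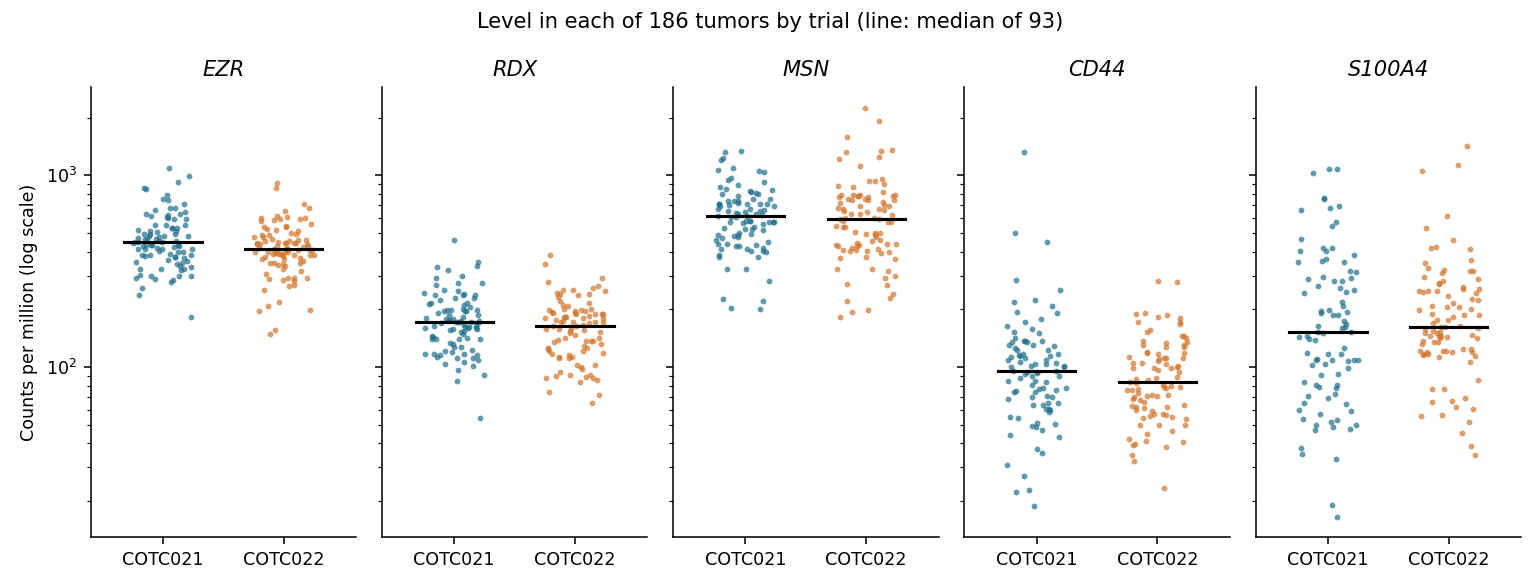
Level of each gene in CPM (log scale) in the 93 tumors of each trial; a point is 1 dog and the line the median. EZR and RDX form tight bands, S100A4 spreads from 16.5 to 1416 CPM, 1 COTC021 tumor reaches 1331 CPM of CD44, and the trials overlap for every gene.

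The labels divide the dogs by trial only, and none of the 5 genes passed the test between the trials. EZR had a lowest, median and highest level of 182, 447 and 1098 CPM in COTC021 and of 148, 411 and 916 CPM in COTC022. The difference, COTC022 minus COTC021, was -0.16 on the log2 scale (SE 0.07, 95% interval -0.29 to -0.02, adjusted p = 0.421). The 93 dogs of one trial overlapped those of the other over nearly the whole range.

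RDX had medians of 171 and 164 CPM in COTC021 and COTC022, and a difference of -0.12 (95% interval -0.26 to 0.03, adjusted p = 0.631). MSN had medians of 613 and 594 CPM and a difference of -0.04 (95% interval -0.22 to 0.14, adjusted p = 0.928). CD44 had medians of 95.5 and 83.3 CPM and differed by -0.13 (95% interval -0.38 to 0.12, adjusted p = 0.782). S100A4, the most variable, had medians of 153 and 163 CPM and differed by 0.17 (95% interval -0.17 to 0.51, adjusted p = 0.796). Limma-voom called 0 of the 5 members, against 0.0149% of the 13422 genes tested, which were 2 genes. At an unadjusted p under 0.05 limma-voom counted 1 member, EZR, and edgeR and DESeq2 each counted 2, EZR and CD44, with 0 called after adjustment by either. The share of all genes at that unadjusted threshold is not given here, so these counts do not set the members apart.

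The trial difference was also taken within each set of libraries. In the 136 other libraries EZR differed by -0.27 (SE 0.08, unadjusted p = 0.000666, adjusted p = 0.110), and in the 50 deeper ones by 0.13 (SE 0.13, adjusted p = 0.799). S100A4 differed by 0.78 in the deeper libraries (SE 0.27, unadjusted p = 0.00592, adjusted p = 0.763) and by -0.00039 in the others (SE 0.21). In the test of that change itself, chosen after seeing the data, EZR had a change of 0.40 (SE 0.16, adjusted p = 0.389) and S100A4 one of 0.78 (SE 0.40, adjusted p = 0.466), and 0 of 13422 genes were called by limma-voom, with 1466 at an unadjusted p under 0.05.

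Next, the members were set against leukocyte content, since tumor cells and leukocytes both make several of them. The leukocyte score of a tumor is the mean of 10 standardised marker levels, PTPRC (CD45) among them, and slopes are given as log2 change per 1 SD of the score with the trial held. CD44, S100A4 and MSN rose with the score, and EZR and RDX did not pass the test. CD44 rose by 0.31 (SE 0.06, adjusted p = 5.21e-06), S100A4 by 0.29 (SE 0.08, adjusted p = 0.00253) and MSN by 0.19 (SE 0.04, adjusted p = 7.94e-05). EZR had a slope of -0.04 (95% interval -0.10 to 0.03, adjusted p = 0.375) and RDX one of 0.01 (95% interval -0.06 to 0.09, adjusted p = 0.788). Hence 3 of 5 members were called higher and 0 lower, where 22.8% of the 13412 genes outside the score were called higher and 28.1% lower.

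These slopes were small beside the spread between dogs. The leukocyte score accounted for 12.9% of the variance of CD44, with Pearson's r = 0.36 (permutation p = 1e-05, the smallest that 100000 resamples can give) and Spearman's rho = 0.30 (p = 5e-05). For MSN it accounted for 9.91% (r = 0.31, p = 2e-05; rho = 0.33, p = 2e-05) and for S100A4 for 5.38% (r = 0.23, p = 0.00156; rho = 0.24, p = 0.00094). EZR had r = -0.07 (p = 0.363) and rho = -0.04 (p = 0.556), and RDX r = 0.03 (p = 0.671) and rho = -0.06 (p = 0.420). Without the 2 dogs farthest from the median score, r was 0.31 for CD44, 0.30 for MSN and 0.23 for S100A4. Of all genes tested, 90.0% had a lower r with the score than CD44, 87.9% a lower one than MSN and 45.6% a lower one than EZR. Each member was set against 8 such scores, and these p-values are not adjusted for that, whereas those of the slopes are adjusted over all genes tested.

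MSN held its leukocyte slope in each set of dogs. It was 0.22 in COTC021 (adjusted p = 0.00119), 0.17 in COTC022 (adjusted p = 0.0385), 0.23 among the 50 deeper libraries (adjusted p = 0.0107) and 0.17 among the other 136 (adjusted p = 0.0111). CD44 had slopes of 0.32 and 0.29 in the 2 trials (adjusted p = 0.00742 and 0.000628) and of 0.35 in the other libraries (adjusted p = 6.16e-05). In the 50 deeper libraries its slope of 0.18 missed the threshold (95% interval -0.02 to 0.37, adjusted p = 0.177). With the T cell score in place of the leukocyte score the slope of MSN was 0.07 (adjusted p = 0.214). That score rests on 6 of 10 listed T cell markers, the others not having been tested. The 3 tumors with the most MSN, at 2252, 1909 and 1580 CPM, ranked 142, 186 and 27 of 186 in the leukocyte score. The 3 with the least, at 182.8, 193.8 and 197.2 CPM, ranked 105, 185 and 140.

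For S100A4 the sets of dogs gave unlike slopes. In COTC021 it rose by 0.57 per SD of the leukocyte score (SE 0.13, adjusted p = 0.000278, r = 0.42), and in COTC022 its slope was 0.03 (SE 0.10, adjusted p = 0.865, r = 0.02). By library set it rose by 0.41 in the 136 other libraries (adjusted p = 0.00100) and had a slope of -0.05 in the 50 deeper ones (adjusted p = 0.811). The test of the difference in slope between the trials gave -0.54 for S100A4 (SE 0.16, unadjusted p = 0.00114, adjusted p = 0.9995). It passed for 0 of the 5 members and for 0% of the 13422 genes by limma-voom, with 423 genes at an unadjusted p under 0.05, and edgeR called 7 genes and gave S100A4 -0.62 (adjusted p = 0.289). Over all 186 dogs, edgeR gave S100A4 a leukocyte slope of 0.14 (adjusted p = 0.202) and DESeq2 one of 0.14 (adjusted p = 0.136), and with the T cell score in its place limma-voom gave 0.19 (adjusted p = 0.0689). In the library sets, the test of the difference in slope, chosen after seeing the data, gave S100A4 -0.44 (SE 0.18, adjusted p = 0.355) and called 23 genes.

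**Figure D2:**
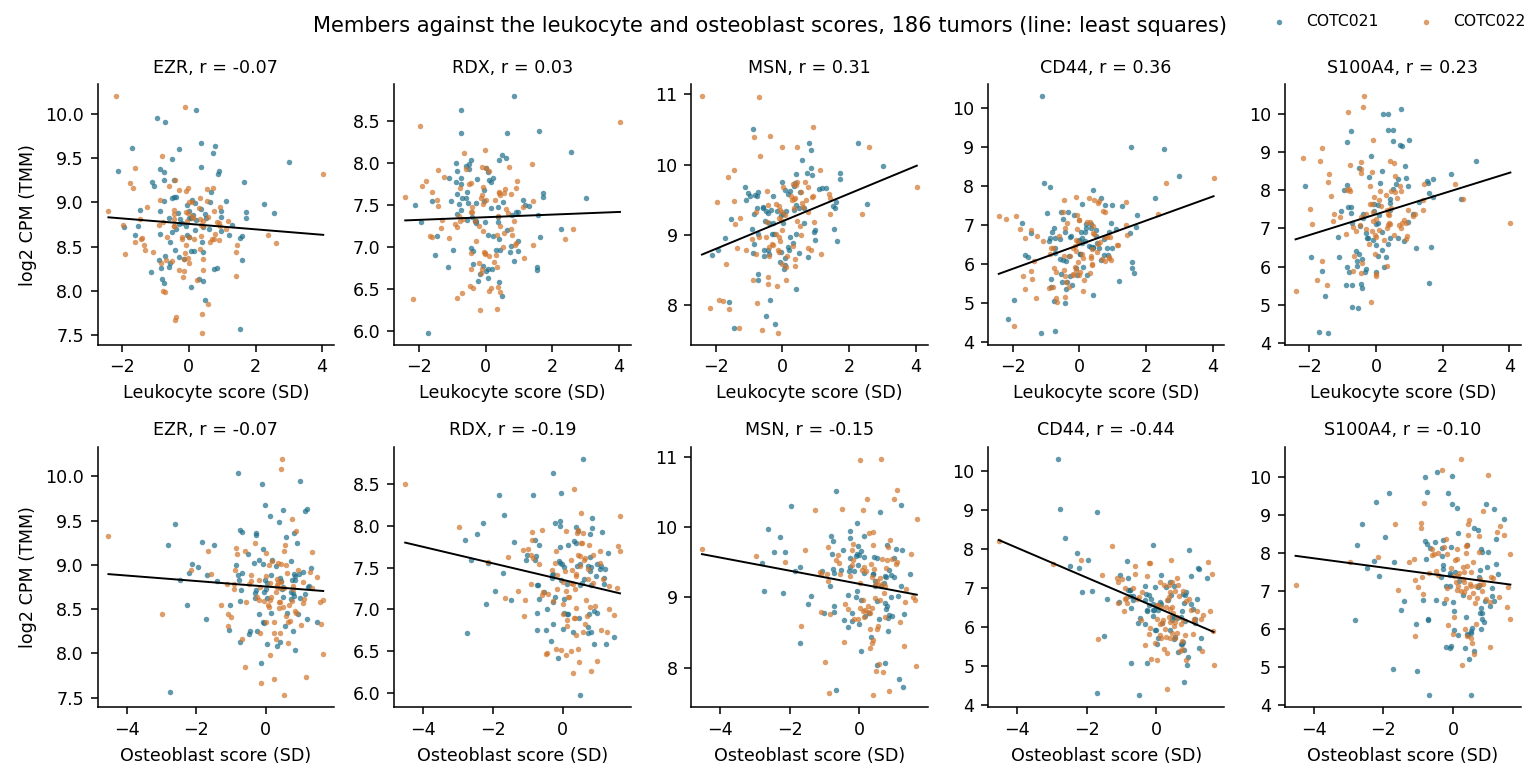
Normalized level (log2 CPM) of each gene against the leukocyte score (top) and the osteoblast score (bottom), both in SD; points are 186 tumors colored by trial and the line is a least-squares fit. MSN and CD44 climb with the leukocyte score, EZR and RDX do not, and CD44 falls with the osteoblast score (r = -0.44).

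The GS-1 signature was derived in earlier work from canine osteosarcoma set against osteoblasts, and the study applied it to the present tumors. The score used here rests on the 27 genes of the signature that the study kept after its own filter on low counts, and none of them is a member. Its r with the leukocyte score was 0.94, and the lists share 2 genes, CD53 and IKZF1, which enter both scores. With the GS-1 score CD44 rose by 0.29 per SD (SE 0.06, adjusted p = 2.35e-05), MSN by 0.15 (SE 0.04, adjusted p = 0.00388) and S100A4 by 0.20 (SE 0.09, adjusted p = 0.0384). EZR had a slope of -0.01 (adjusted p = 0.770) and RDX one of 0.05 (adjusted p = 0.289). Thus 3 of 5 members were called higher and 0 lower, against 22.6% and 26.8% of the 13395 genes outside the signature. The S100A4 call was lost with edgeR (slope 0.03, adjusted p = 0.808) and DESeq2 (0.03, adjusted p = 0.774). MSN passed in COTC021 (0.20, adjusted p = 0.00566) but not in COTC022 (0.10, adjusted p = 0.246), nor within the 50 deeper libraries (0.18, adjusted p = 0.0614) or the other 136 (0.12, adjusted p = 0.0884). CD44 passed in both trials and missed the threshold within the deeper libraries (0.21, adjusted p = 0.107).

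To set leukocytes beside the other cells of the tumor, the leukocyte, osteoblast, fibroblast, endothelial and proliferation scores were fitted together. The leukocyte slope stayed past the threshold for CD44 (0.27, SE 0.07, adjusted p = 0.000615), MSN (0.15, SE 0.05, adjusted p = 0.0187) and S100A4 (0.27, SE 0.10, adjusted p = 0.0302), 3 members where 16.4% of genes outside the 5 lists were called higher. EdgeR gave smaller leukocyte slopes and called none of these 3 (CD44 0.14 with adjusted p = 0.0767, MSN 0.10 with 0.123, S100A4 0.11 with 0.453). Within single trials the joint leukocyte slope passed for CD44 in COTC022 (0.27, adjusted p = 0.00917) and for S100A4 in COTC021 (0.55, adjusted p = 0.00530), and for MSN in neither (0.13 with adjusted p = 0.137 and 0.17 with adjusted p = 0.147).

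CD44 fell with the osteoblast score, which averages bone-forming genes such as RUNX2, ALPL and COL1A1. Its slope was -0.28 (SE 0.06, adjusted p = 7.36e-05), and it was the 1 member called lower, where 13.8% of genes were. EdgeR gave -0.38 (adjusted p = 4.85e-10). CD44 also rose with the fibroblast score by 0.20 (SE 0.06, adjusted p = 0.00664), again as the 1 member where 15.6% of genes were called higher, but not by edgeR (0.13, adjusted p = 0.0985) nor in COTC021 (0.20, adjusted p = 0.177) or COTC022 (0.20, adjusted p = 0.0510) alone. The osteoblast slope passed in both trials (-0.32 and -0.23, adjusted p = 0.0110 and 0.0207). With the endothelial score 0 members passed by limma-voom, where 10.9% of genes did in either direction; 0 members had an unadjusted p under 0.05, and edgeR called CD44 lower (-0.20, adjusted p = 0.0126).

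RDX fell with the proliferation score by 0.10 (SE 0.04, adjusted p = 0.0471), the 1 member called lower where 21.6% of genes were. In neither trial alone did it pass (-0.09 with adjusted p = 0.290 and -0.10 with adjusted p = 0.149). EZR had a slope of -0.07 on that score by limma-voom (adjusted p = 0.153) and one of -0.09 by edgeR, just past the threshold (adjusted p = 0.0485). When separate macrophage and T cell scores replaced the leukocyte score, RDX fell by 0.20 with macrophages (SE 0.05, adjusted p = 0.00110) and rose by 0.17 with T cells (SE 0.05, adjusted p = 0.0251). In the same fit neither score passed for MSN (0.15 with macrophages, adjusted p = 0.0978) or for CD44 (0.14, adjusted p = 0.253). The 2 scores share much of their variation (r = 0.69), and each slope holds the other score.

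**Figure D3:**
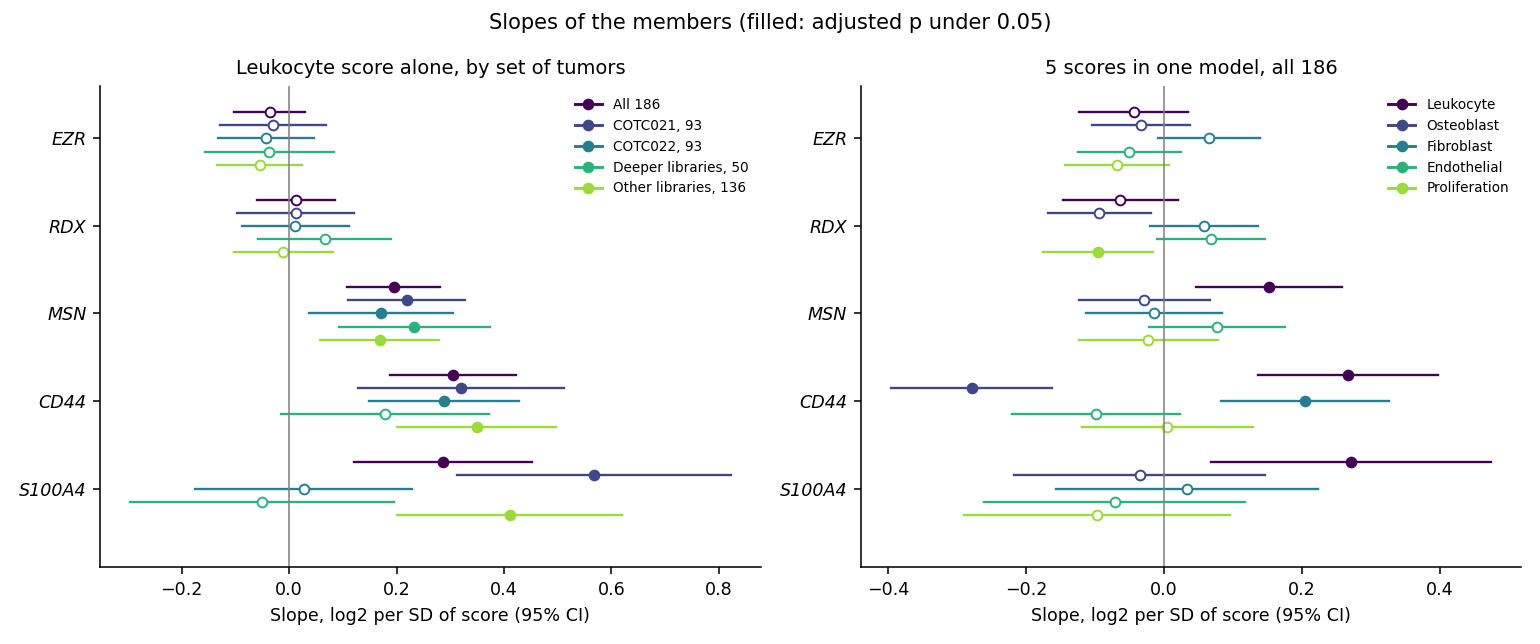
Slopes in log2 per SD of score with 95% intervals, filled where the adjusted p is under 0.05: on the left the leukocyte score alone in all dogs, each trial and each library set, on the right the 5 scores fitted together. S100A4 has a slope of 0.57 in COTC021 and 0.03 in COTC022, and CD44 has opposite slopes on the leukocyte (0.27) and osteoblast (-0.28) scores.

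The inverse relation of CD44 and the osteoblast score was the closest of any member with a score. Over the 186 dogs r was -0.44 (permutation p = 1e-05, the smallest possible) and rho -0.35 (p = 1e-05), which is 19.7% of the variance of CD44. Within COTC021 and COTC022 r was -0.44 in both, and among the 50 deeper libraries it was -0.40, against -0.47 among the other 136. Without the 2 dogs farthest from the median osteoblast score it was -0.41. The 3 dogs with the least CD44, at 18.77, 22.15 and 22.85 CPM, ranked 140, 174 and 35 of 186 in the osteoblast score. Low CD44 was thus also seen in tumors low in that score. The 3 dogs with the most CD44, at 1331, 498 and 451 CPM, ranked 184, 183 and 173 of 186 in the osteoblast score. In the leukocyte score these 3 highest dogs ranked 165, 12 and 4, and the tumor with the highest CD44 was low in both scores. Without that dog, an alternative chosen after seeing the data, the leukocyte slope of CD44 was 0.33 (adjusted p = 1.22e-07) and its trial difference -0.09 (adjusted p = 0.861).

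Seen by their own levels, the members varied together only loosely. Of the 10 pairs, 7 had a Pearson correlation with a permutation p under 0.05, not adjusted for the 10, and no r exceeded 0.27. The share of all gene pairs under that threshold was not taken, so the count does not set the members apart from other genes. Many genes went with a single member: even after adjustment, limma-voom called 19.8% of other genes higher and 21.5% lower with MSN. MSN and CD44 were the closest pair (r = 0.27, p = 0.00028; rho = 0.33, p = 1e-05, the smallest possible). With the leukocyte score and the trial taken out of both genes, their r was 0.17 (p = 0.0177). Next came EZR with RDX (r = 0.21, p = 0.0035; rho = 0.23, p = 0.00146), MSN with S100A4 (r = 0.21, p = 0.00385; rho = 0.23, p = 0.00206) and CD44 with S100A4 (r = 0.21, p = 0.00364; rho = 0.25, p = 0.00045).

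EZR and MSN, both ERM genes, had r = 0.10 (p = 0.183; rho = 0.11, p = 0.138), with 0.28 in COTC021 and -0.06 in COTC022. RDX and S100A4 had the 1 negative value, -0.07 (p = 0.323; rho = -0.07, p = 0.346). Among the 50 deeper libraries EZR and RDX had r = -0.0031, against 0.28 among the other 136. In COTC022 alone 1 of the 10 pairs had a p under 0.05, fewer than in COTC021 alone.

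Each member was then used as the measure against which all other genes were tested, in log2 per SD of the member. With EZR 1.03% of the 13421 other genes were called higher and 0.402% lower, fewer than with any other member. Limma-voom called 0 of the 4 other members, and 2, RDX and S100A4, had an unadjusted p under 0.05. The share of other genes at that unadjusted threshold is not given here. With RDX 14.6% rose and 15.4% fell, and EZR and MSN were called higher, 2 of 4 members. With MSN 19.8% rose and 21.5% fell, and RDX, CD44 and S100A4 were higher, 3 of 4. With CD44 18.3% rose and 17.3% fell, and MSN and S100A4 were higher, 2 of 4. With S100A4 7.89% rose and 8.93% fell, and EZR, MSN and CD44 were higher, 3 of 4.

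The membrane proteins that ERM proteins bind were followed as a list of 11 genes tested. With the leukocyte score 9 rose, 1 fell and 1 did not pass, where 22.8% of genes outside the score rose and 28.1% fell. The median slope was 0.38 against -0.02 over all genes. The steepest was SELPLG, the selectin ligand PSGL-1 of leukocytes, at 1.06 (SE 0.04, adjusted p = 1.38e-64), and the scaffold SLC9A3R2 fell by 0.13 (SE 0.05, adjusted p = 0.0266). Several of these partners, SPN and ICAM3 among them, are themselves proteins of the leukocyte surface. With MSN 7 of the 11 rose and 1 fell (median 0.21 against -0.0037 over all genes). With CD44 6 rose and 0 fell (median 0.10 against -0.0063), with RDX 1 rose and with S100A4 2 rose. With EZR 0 were called, the lowest adjusted p being 0.396 for PODXL (0.13, SE 0.07). Of all other genes, 19.8% rose and 21.5% fell with MSN, and 18.3% and 17.3% with CD44. The shares were 14.6% and 15.4% with RDX and 7.89% and 8.93% with S100A4. With EZR they were only 1.03% and 0.402%, so 0 calls in a short list do not set its partners apart. The same shares apply to the lists that follow.

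PODXL, the podocalyxin that ERM proteins anchor, was the partner with the steepest slope on MSN, at 0.28 (SE 0.07, adjusted p = 0.000328), and on RDX, at 0.28 (SE 0.07, adjusted p = 0.00075). On MSN the leukocyte genes ICAM3 and SPN were level with it, each at 0.28. With the scores fitted together, PODXL rose with the endothelial score by 0.83 (SE 0.04, adjusted p = 1.30e-41). In that fit its leukocyte slope was 0.0040 (adjusted p = 0.959), against 0.22 with the leukocyte score alone (adjusted p = 0.00491). How far endothelial content carries the slopes of PODXL on MSN and RDX was not tested. SLC9A3R2 fell by 0.19 with MSN (adjusted p = 0.00078). Its relative SLC9A3R1, also called EBP50, rose by 0.25 with MSN (adjusted p = 0.000937). The 2 scaffolds therefore had opposite slopes on MSN. With CD44 the steepest partner was ICAM1, a ligand of leukocyte integrins, at 0.44 (SE 0.06, adjusted p = 1.16e-09).

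The enzymes that open and hold ERM proteins active were a list of 11 tested genes, RHOA, its kinases ROCK1 and ROCK2, other ERM kinases and the lipid kinases that make the phosphoinositide they bind. With MSN 8 rose and 0 fell (median 0.10 against -0.0037). With RDX 6 rose and 0 fell (median 0.11 against 0.0012), with CD44 6 rose and 0 fell (median 0.08 against -0.0063), and with S100A4 1 rose and 0 fell. With EZR 0 passed (median 0.02 against -0.0023), where 1.03% of all other genes rose and 0.402% fell. PRKCA, a protein kinase C, came nearest at 0.14 (SE 0.04, adjusted p = 0.0767).

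STK10, the kinase LOK that phosphorylates ERM proteins in lymphocytes, had the steepest slope of the list on MSN (0.18, SE 0.04, adjusted p = 0.000253), RDX (0.21, SE 0.04, adjusted p = 3.86e-05) and CD44 (0.29, SE 0.04, adjusted p = 2.06e-09). SLK, its close relative in other tissues, rose by 0.18 with MSN (adjusted p = 7.97e-07) and by 0.17 with RDX (adjusted p = 1.68e-05). RHOA also rose by 0.18 with MSN (adjusted p = 2.22e-08), so STK10, SLK and RHOA were level there. STK10 also rose with the leukocyte score, by 0.42 (SE 0.03, adjusted p = 5.15e-25), where 5 of the 11 rose, 1 fell and the median was -0.02, that of all genes being -0.02. The gene that fell was CDC42BPA, an MRCK kinase, at -0.26 (SE 0.04, adjusted p = 1.11e-08). How far leukocyte content carries the slopes on MSN, RDX and CD44 was not tested for these lists.

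Other proteins with a FERM domain made up a list of 8 genes. EPB41, protein 4.1 of the red cell membrane, had the steepest slope on the leukocyte score (0.62, SE 0.05, adjusted p = 3.85e-23), with 2 genes rising and 2 falling. It also rose with RDX by 0.21 (adjusted p = 0.0102) and with CD44 by 0.26 (adjusted p = 0.00084). EPB41L2 rose with EZR by 0.15 (SE 0.04, adjusted p = 0.0143), the 1 gene of the list to do so, and fell with CD44 by 0.14 (adjusted p = 0.00125). EPB41L2 lies on chromosome 1, as EZR does, 21.1 Mb away, and genes of one chromosome are described further below. NF2, the tumor suppressor merlin, was called with none of the 5 members.

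**Figure D4:**
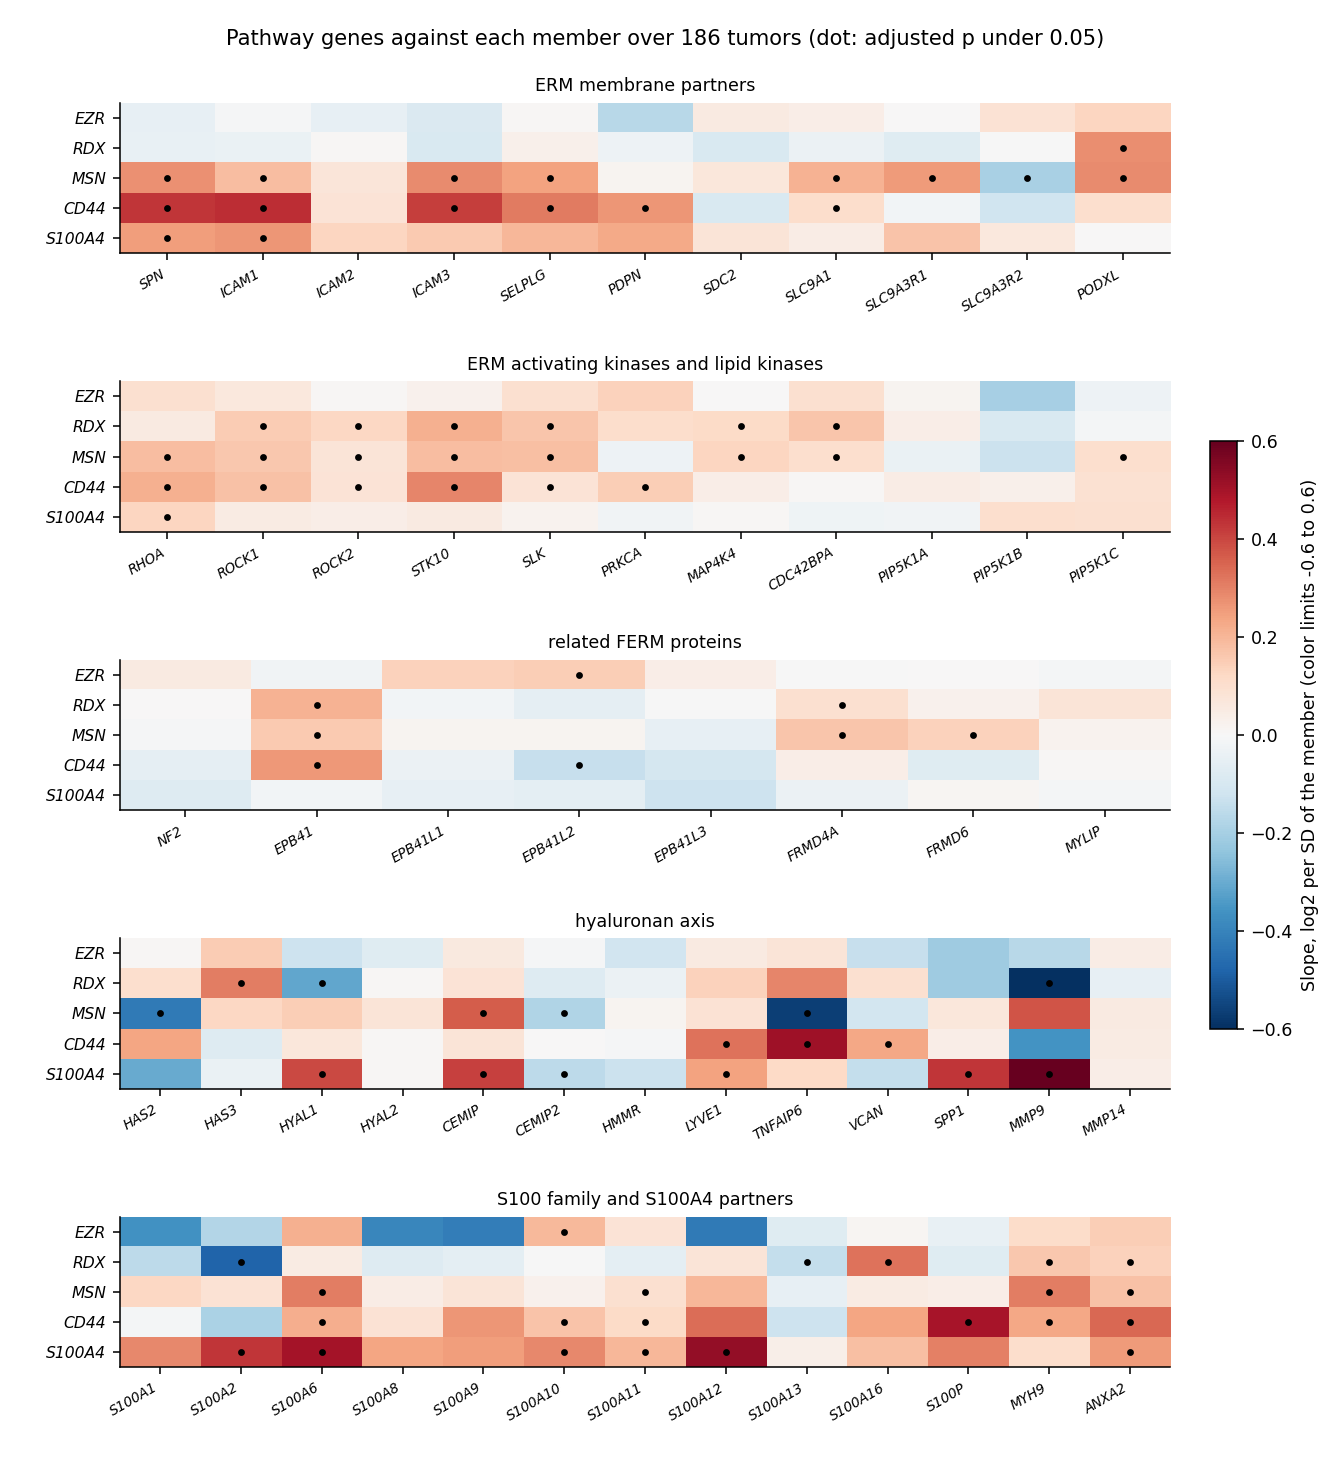
Slopes of the genes of 5 pathway lists (columns) on each member (rows), as log2 per SD of the member over 186 tumors; red is positive, blue negative, and a dot marks an adjusted p under 0.05. MSN has 8 dots each among partners and kinases, CD44 has 6 each, and EZR has 2 in all lists. Of all other genes, 1.03% rose and 0.402% fell with EZR, against 19.8% and 21.5% with MSN.

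Around CD44 lies the hyaluronan axis, with 13 genes tested: synthases, hyaluronidases, other hyaluronan-binding proteins, the CD44 ligand SPP1 (osteopontin) and the proteases MMP9 and MMP14. With CD44 3 rose and 0 fell, where 18.3% of all other genes rose and 17.3% fell (median 0.05 against -0.0063 over all genes). TNFAIP6, which binds hyaluronan in inflammation, rose by 0.51 (SE 0.16, adjusted p = 0.00695), LYVE1, the hyaluronan receptor of lymphatic vessels and some macrophages, by 0.32 (adjusted p = 0.000389) and VCAN, versican, by 0.23 (adjusted p = 0.0430). The gene with the lowest slope, MMP9, did not pass the test.

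Other genes of this list passed with the other members. With MSN TNFAIP6 fell by 0.56 (SE 0.16, adjusted p = 0.00357) and the synthase HAS2 by 0.43 (adjusted p = 0.0150), and CEMIP, which helps to break hyaluronan down, rose by 0.37 (adjusted p = 0.0124). With RDX HAS3 rose by 0.30 (adjusted p = 3.34e-05), and MMP9, a protease abundant in osteoclasts, fell by 0.80 (SE 0.19, adjusted p = 0.00064). With S100A4 MMP9 rose by 0.73 (SE 0.19, adjusted p = 0.00456) and SPP1 by 0.43 (adjusted p = 0.00441), in a list of which 5 rose and 1 fell. With EZR 0 of 13 passed, where 1.03% of all other genes rose and 0.402% fell. SPP1, at -0.21 (adjusted p = 0.412), and HAS3, at 0.15 (adjusted p = 0.227), were the ends of the range. With the leukocyte score 5 rose, SPP1 the most at 0.71 (SE 0.11, adjusted p = 5.65e-09), and 2 fell, MMP14 the most at -0.16 (adjusted p = 0.00279).

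S100A4 was set beside 13 genes of its family and its partners. With S100A4 6 rose and 0 fell, where 7.89% of all other genes rose and 8.93% fell (median 0.25 against -0.0016 over all genes). S100A6, a neighbor of S100A4 in the genome that starts at base 43491387 of the same chromosome, rose by 0.50 (SE 0.06, adjusted p = 4.54e-12). S100A10 rose by 0.29 (adjusted p = 4.16e-08) and its partner ANXA2, annexin A2, by 0.25 (adjusted p = 8.93e-05). S100A11 rose by 0.20 (adjusted p = 4.2e-06), S100A12 by 0.53 (adjusted p = 0.0162) and S100A2 by 0.43 (adjusted p = 0.00998). MYH9, the heavy chain of the non-muscle myosin that S100A4 binds, rose with MSN by 0.31 (SE 0.04, adjusted p = 5.23e-11) and with CD44 by 0.23 (adjusted p = 2.05e-06), and with S100A4 it did not pass. S100A10 was also 1 of the 2 pathway genes called with EZR, at 0.19 (SE 0.04, adjusted p = 0.00791). With the leukocyte score the S100 genes that rose most were S100P (0.94, SE 0.09, adjusted p = 3.67e-18) and the myeloid genes S100A9 (0.94, adjusted p = 9.3e-11) and S100A12 (0.88, adjusted p = 1.01e-08), and 6 rose and 1 fell.

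Marker lists of the tumor's cell types moved differently with the members. Of all other genes, 14.6% rose and 15.4% fell with RDX, and 7.89% and 8.93% with S100A4. The shares were 18.3% and 17.3% with CD44, 19.8% and 21.5% with MSN, and 1.03% and 0.402% with EZR. With RDX all 7 osteoclast genes tested fell (median -0.58 against 0.0012 over all genes), 8 of 10 proliferation genes fell, and 5 of 8 endothelial and 3 of 8 fibroblast genes rose. With S100A4 5 of the 7 osteoclast genes rose and 0 fell (median 0.46). With CD44 8 of 10 osteoblast genes fell (median -0.61), all 10 macrophage genes and 5 of 6 T cell genes rose (medians 0.34 and 0.45), and 0 of 7 osteoclast genes passed. With MSN 5 of 7 cartilage genes fell (median -0.61), 5 of 8 endothelial and 4 of 10 macrophage genes rose, and 0 of 6 T cell genes passed. Of the 10 leukocyte genes, 9 rose with MSN, 9 with CD44, 5 with S100A4 and 0 with RDX. With EZR 1 cartilage and 1 fibroblast gene rose, and 0 genes of the leukocyte, macrophage, T cell, osteoblast, osteoclast, endothelial and proliferation lists passed. MMP9 belongs to the osteoclast list and to the hyaluronan list.

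The genes whose levels over the 186 dogs were most like each member were named by Spearman's rho, as a description without a test. All points come from the same libraries, and genes of one tumor share its depth and its mix of cells. For EZR they were NFATC2 (rho 0.42), MYADM (0.41) and PLEC (0.40), PLEC encoding the cytoskeletal linker plectin. For MSN they were YIPF6 (0.65), IQGAP1 (0.61), an actin scaffold, and RPS6KA3 (0.56). For CD44 they were EHD4 (0.60), LRRFIP1 (0.58) and ATXN1 (0.57).

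For S100A4 the closest genes were CRIP1 (rho 0.54), S100A6 (0.54) and FXYD5 (0.49). For RDX they were YAP1 (0.58), a cofactor of the Hippo pathway, DIXDC1 (0.58) and ZZEF1 (0.55), and all 3 lie on chromosome 5, as RDX does. MYADM lies on chromosome 1, as EZR does, and YIPF6 and RPS6KA3 lie on the X chromosome, as MSN does. CD99L2, added after its value was seen, lies there too and had the lowest rho with MSN of any gene with a symbol (-0.56).

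Position was therefore described for each member over the 13390 genes tested that the annotation places. Among the 50 genes with the highest rho, 28 shared the chromosome of RDX, where 5.12% of genes lie. The counts were 20 for EZR (6.23% of genes on chromosome 1), 10 for CD44 (3.29% on chromosome 18), 9 for MSN (3.43% on the X chromosome) and 2 for S100A4 (3.43% on chromosome 7). The median rho of RDX with genes of its chromosome was 0.12, against -0.0035 with all others. It was 0.26 over the 45 genes 1 to 5 Mb away and 0.07 over the 216 genes more than 40 Mb away.

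Genes of one chromosome varied together in the table as a whole. Over all 13390 genes the median of the same measure was 0.08, and 20% of the top 50 lay on the gene's own chromosome in the median gene. By that share of the top 50, RDX stood above 81.6% of genes and EZR above 71.0%. CD44 stood above 49.4%, MSN above 46.4% and S100A4 above 11.3%, so CD44 and MSN were near the median gene. Among all genes, 71.1% had a lower median than RDX and 81.9% a lower one than CD44, at 0.15. EZR, at 0.06, stood above 33.8% of genes. S100A4, at -0.0076, stood above 8.19%, the lowest of the 5 members. The median for RDX was 0.16 in COTC021 and 0.10 in COTC022, and that for CD44 was 0.21 and 0.11. DNA copy number was not measured in these files. The sex of the dogs was in no fit, and its bearing on genes of the X chromosome was not tested.

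**Figure D5:**
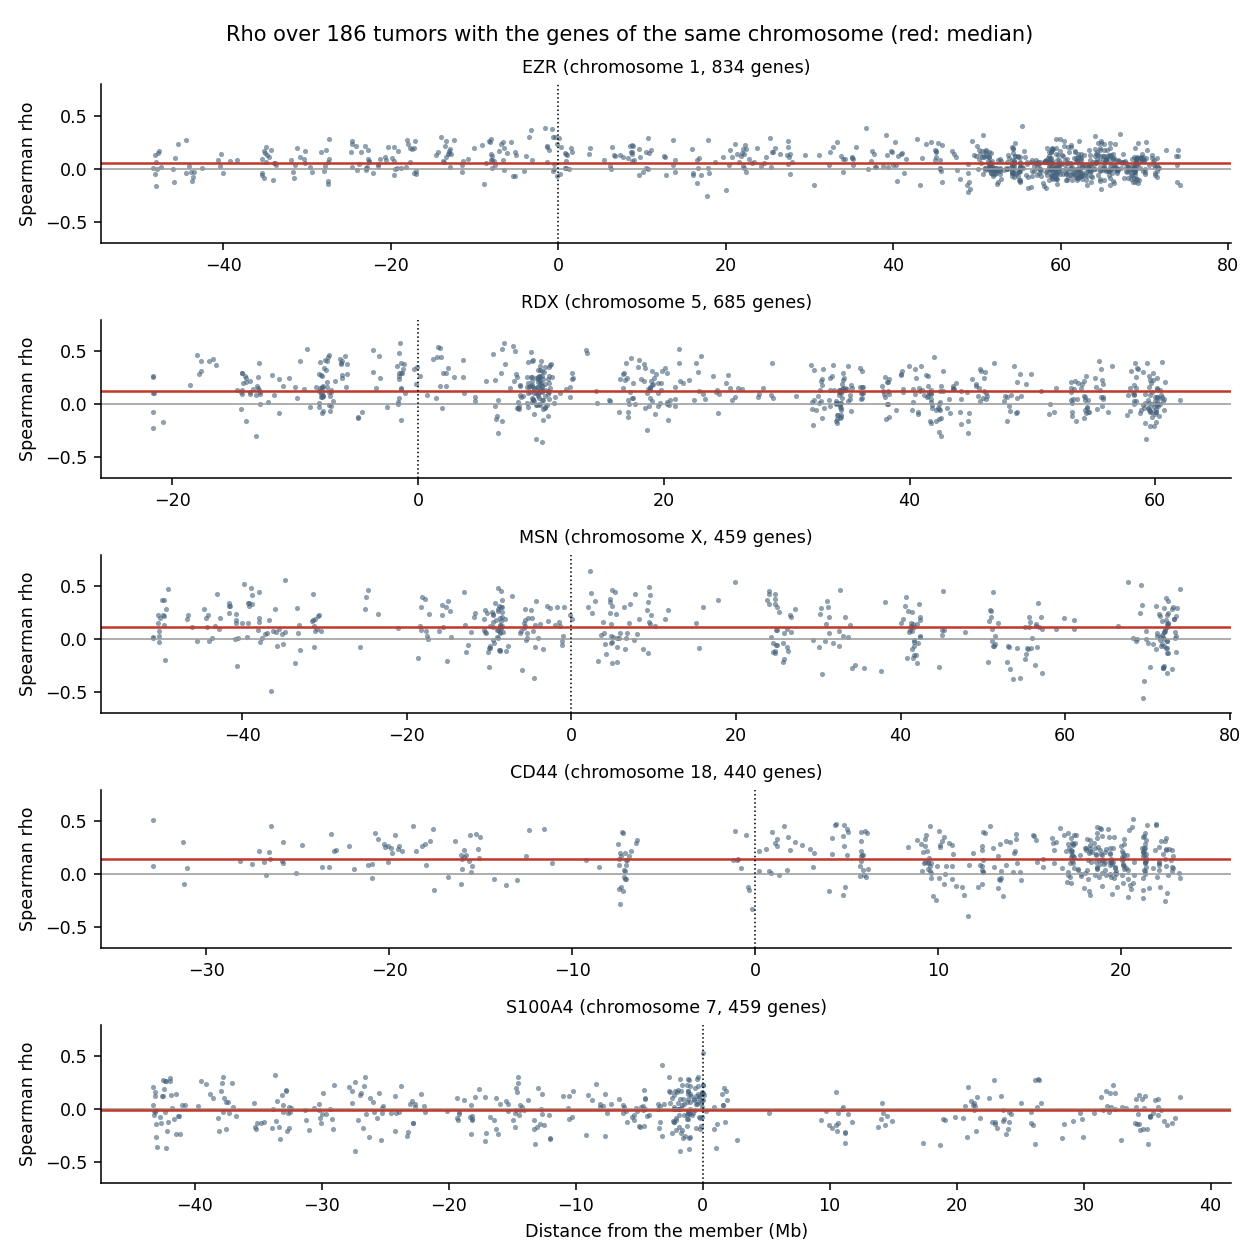
Spearman's rho over 186 tumors between each member and every tested gene of its chromosome, by distance in Mb; the dotted line marks the member, the red line the median. RDX, MSN and CD44 have medians of 0.12, 0.11 and 0.15, EZR one of 0.06, and S100A4 one of -0.0076 with S100A6 (rho 0.54) as the highest point, next to the member.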

How the data were processed

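Total RNA of frozen tumor was made into stranded mRNA libraries and sequenced in pairs. The authors trimmed reads with cutadapt, aligned them with STAR 2.7.0f to the dog assembly UU_Cfam_GSD_1.0 and deposited RSEM 1.3.1 expected counts per gene, of which 3.07% were not whole and were rounded here. Reads that fit several genes are shared out by RSEM. The table holds 12 columns that match no sample and were not used, and 108 gene names on more than 1 row. Dogs were grouped by the trial in their labels. The members and all lists were chosen with earlier results of these data known.

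Genes passing filterByExpr (minimum count 10) were fitted with limma-voom and TMM factors (limma 3.58.1, edgeR 4.0.16, R 4.3.3), with Benjamini-Hochberg adjustment over all genes tested and a threshold of 0.05. Scores are mean z-scores of markers. Correlations used log2 CPM (prior count 2) and 100000 two-sided permutations (scipy 1.17.1). Named genes were the members, the pathway genes with the largest changes on either side in a comparison, and the 3 genes most like each member. Other pathway genes are named for their role, chosen after their values were seen. On simulated counts for the trial comparison, 67 of 100 genes changed by 0.5 on the log2 scale were recovered over 13372 genes, and 92 of 98 changed by 1. Alternatives were edgeR, DESeq2 1.42.0, other size factors, no filter, covariates and subsets of dogs.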

Additional observations from a re-analysis of the deposited data

How the results depend on the processing

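Library totals from 6587634 to 27420867 counts put at least 158 reads behind every member value. How far depth bears on the differences between the deeper and the other libraries was not tested. Between the trials 2 genes passed with limma-voom, 129 with edgeR, 91 with DESeq2, 0 in the deeper libraries alone and 8 in the others. With the leukocyte score 6828 genes passed, against 3436 in the deeper libraries, 4053 in COTC021 and 4453 with the T cell score. With the GS-1 score 6643 passed, against 3261 in the deeper libraries and 3706 in COTC021. The leukocyte slope differed between trials for 0 genes with limma-voom and 7 with edgeR. In the joint model, COTC021 and COTC022 alone gave 2107 and 2936 genes for the leukocyte score (4559 in all dogs), 1857 and 2266 for the osteoblast score (3816) and 1865 and 2211 for the fibroblast score (3943). COTC021 alone gave 675 for the endothelial score (1469), and COTC022 alone 2776 for the proliferation score (5258). Smaller sets hold fewer dogs. Of the 10 member pairs 7 had a p under 0.05, against 1 in COTC022, 4 in the deeper and 4 in the other libraries.

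Among slopes that passed in all dogs, that of S100A4 on the leukocyte score changed sign within the deeper libraries (-0.04988). Its GS-1 slope did so there (-0.01196) and in COTC022 (-0.01521), and its leukocyte slope of the joint model in COTC022 (-0.007496). Values short of the threshold in all dogs changed sign too. Among them were the trial differences of EZR, within the deeper libraries, and of S100A4, within the others. The r of EZR and MSN turned from 0.10 to -0.06 in COTC022, and that of RDX and S100A4 from -0.07 to 0.02 in COTC021. The r of EZR and RDX was -0.0031 in the deeper libraries. The cause was not tested. No paired analysis was possible because each number in the labels belongs to 1 dog.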

Other observations

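The dog with the highest CD44 level was also the highest of 186 for PRR5L, a neighbor of CD44 on chromosome 18, at 1.90 above the median on the log2 scale, and the second highest for APIP, at 1.12 above it. Over the 13 neighbors tested the median was 0.60 above the median dog, and for 4 of them this dog was among the 10 highest. Others were low in the same tumor. ABTB2 was the lowest of all dogs, at -4.99 from the median, and SLC1A2 stood at -4.04. CD44 itself was 3.81 above its median. The share of all genes for which this dog was among the 10 highest was not taken, so the count does not set these neighbors apart. For the highest dog of EZR the count was 3 of 17 neighbors, and for that of S100A4 it was 5 of 43. It was 1 of 3 for MSN and 0 of 5 for RDX. The highest MSN dog was also the highest for the neighbor LAS1L, at 2.87 above the median. The neighbors named were chosen after their values were seen.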
